A study of Mus musculus with 32 samples.

Results

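Gene expression was examined in 3T3-L1 adipocytes, fat cells differentiated in culture from an established mouse fibroblast line, after 24 h with auranofin and BCNU together. The arrays were chosen by their titles: 2 arrays of cells given 1 µM auranofin plus 100 µM BCNU for 24 h and 2 arrays of control cells kept for 24 h without either drug, out of 32 arrays in the series. They were read beside the 2 arrays of auranofin alone at 24 h, the 2 of BCNU alone at 24 h, and the 2 co-treated and 2 control arrays of 8 h, with the drugs at the doses above. All groups were the same cell line, and the 2 arrays of a group were not stated to come from separate cultures, so p-values measure the spread between these arrays, which may be technical. Each array gave a log2 expression level for 21506 genes that a probe set names by a single symbol, so that a difference of 1 is a 2-fold change.

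Auranofin is a gold compound that blocks thioredoxin reductase, the enzyme that returns thioredoxin, and through it the peroxiredoxins, to the reduced state. BCNU (1,3-bis-(2-chloroethyl)-1-nitrosourea) is an alkylating agent that also blocks glutathione reductase, which does the same for glutathione. Cells with oxidised or misfolded proteins commonly call on NRF2, which drives antioxidant enzymes, on HSF1, which drives heat shock chaperones, and on the AP-1 and Egr transcription factors, which are made within minutes of a stress signal. The question the comparison addresses is which genes differ after a full day with both recycling systems inhibited.

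The labelled cell type was borne out by its markers. The mean log2 level of the 12 adipocyte markers measured was 10.99 and 10.86 in control arrays and 10.69 and 10.72 in co-treated arrays. No marker passed both thresholds given below in either direction. Slc2a4 and Cebpa had a limma adjusted p below 0.05 but falls smaller than the size threshold. The 23 preadipocyte and fibroblast markers were also well expressed, at means of 6.85 and 6.92 in the controls against 5.52 and 5.52 with both drugs. Fewer cells of a type and less RNA per cell cannot be told apart in such bulk samples. Across the genes the 2 control arrays correlated at r = 0.99468 and the 2 co-treated arrays at 0.99417. The highest lower quartile of any array, 2.333, is used below as the mark under which a level is near background.

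Both drugs for 24 h gave 1963 differentially-expressed genes (9.13% of those tested), of which 1050 were higher (4.88%) and 913 lower (4.25%) than in 24 h controls. A gene was called at an adjusted p below 0.05 by limma, fitted to all 32 arrays with Benjamini-Hochberg correction, and a log2 change above 0.5. The changes were large as well as many: 670 genes changed over 2-fold and 136 over 4-fold, and over 8-fold there were 18 rises and 11 falls. The median change of all genes was 0.01. The co-treated arrays lay outside the range of the control arrays for 1962 of the 1963 called genes and for 51.6% of all genes tested, so that with 2 arrays against 2 a lack of overlap adds nothing to the call. Fitted to the 4 arrays of the comparison alone, which leaves few degrees of freedom, the same test called 858 genes, and leaving out any of the 4 arrays gave 1506 to 1853.

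The largest rise belonged to Hspa1a, which encodes an inducible HSP70 chaperone. Its log2 level was 2.17 and 2.27 in the control arrays and 9.78 and 9.48 in the co-treated arrays, a change of 7.41 ± 0.40 (SE, adjusted p = 4.14e-11), with the control level near background. P2rx7, an ATP-gated ion channel best known from macrophages, followed with 2.57 and 2.56 in controls and 8.34 and 8.43 with both drugs (5.82 ± 0.23, adjusted p = 8.59e-13). In both genes the co-treated pair lay far above the control pair, and each single drug lay between them. Hspa1a read 3.84 and 3.93 with auranofin and 3.02 and 2.42 with BCNU, and P2rx7 read 4.81 and 5.19 with auranofin and 3.17 and 2.77 with BCNU. The other genes among the 15 largest rises with an established symbol spanned stress transcription factors (Atf3, Egr1), chaperones (Hspa1b, Hsph1, Hspb1), the cornified envelope protein Sprr1a, the protease inhibitor Serpinb2, the collagenase Mmp13, the steroid reductase Akr1c18, the homeobox factor Bsx, the prolactin-family member Prl2c5, and Tmem236 and Ccdc81. Their changes ran from 3.26 (Prl2c5) to 4.45 (Atf3). Control levels of Tmem236, Akr1c18, Serpinb2 and Ccdc81 were near background, so that their fitted folds depend on the low end of the scale.

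The 15 largest falls were of another kind. Sfrp2, a secreted Wnt antagonist, read 8.48 and 8.55 in control cells and 3.0 and 4.45 with both drugs, a fall of 27.7-fold (change −4.79 ± 0.29, adjusted p = 2.49e-10). Ptn (pleiotrophin, a heparin-binding growth factor) went from 11.65 and 11.58 to 7.88 and 7.76, and Ogn (osteoglycin, a small leucine-rich proteoglycan) from 10.51 and 10.44 to 6.90 and 6.75. The 2 co-treated arrays agreed closely for Ptn and Ogn and stood apart for Sfrp2, where both were far below the controls. The other 12 were Col11a1, Postn, Islr, Ifit1, Apod, Mmp2, Timp3, Cdh11, Gdpd2, Slit2, Pcdh18 and Dpt, with changes from −3.62 (Col11a1) to −2.94 (Dpt). Most encode matrix proteins, their proteases or inhibitors, and surface or secreted proteins of fibroblasts, and the interferon-induced Ifit1 is the exception.

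**Figure D1:**
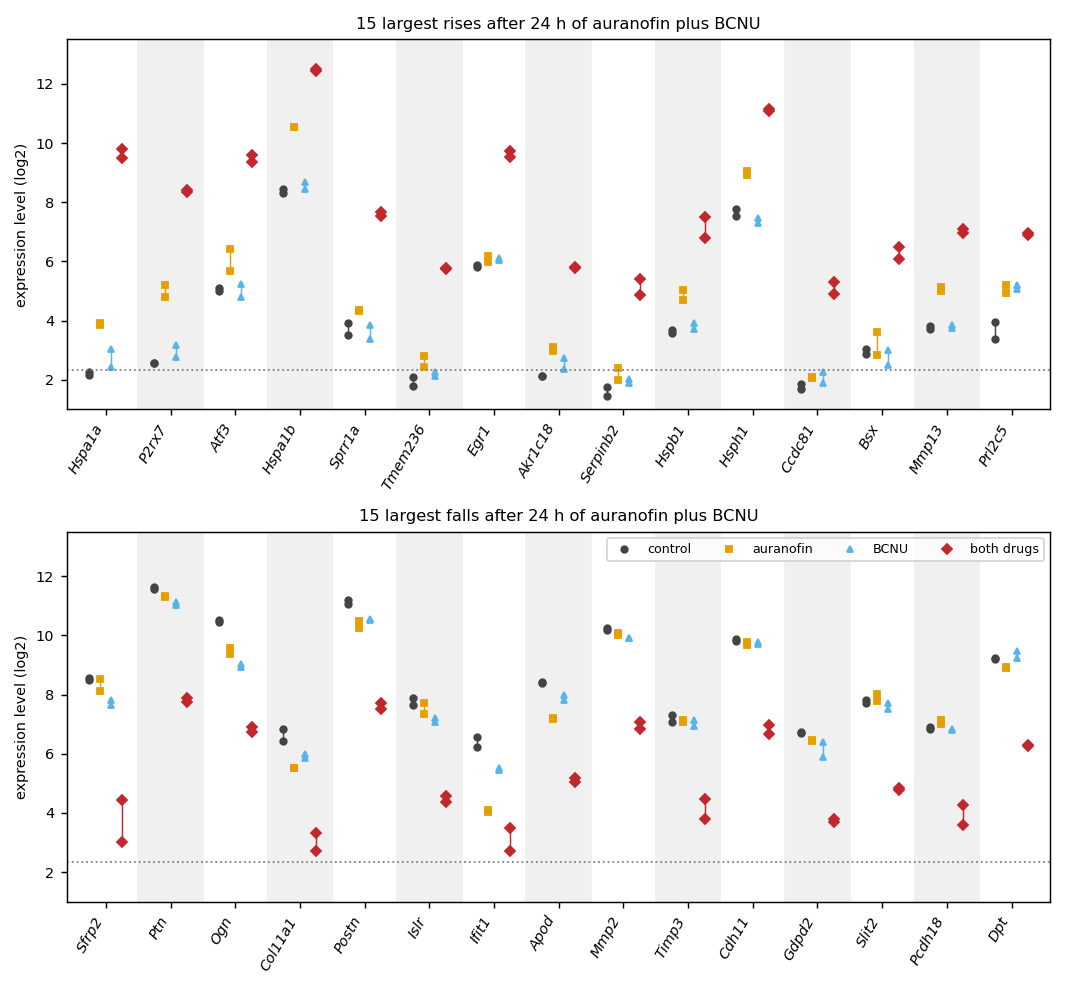
Log2 expression level on each array at 24 h of the 15 genes with the largest rise (top) and fall (bottom) after both drugs, with the 2 arrays of control, auranofin, BCNU and both drugs as separate points joined by a line and the background mark of 2.333 dotted. Co-treated arrays of Hspa1a reached 9.78 and 9.48 from controls near background, and the single-drug arrays lay nearer the controls than the co-treated arrays for all genes shown but Hspa1b and Ifit1 with auranofin.

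Every class of heat shock chaperone examined outside the endoplasmic reticulum had some members that rose. Of 12 HSP70 and HSP110 genes measured, 6 were higher and 1, Hspa12a, was lower (median change 0.61), and of 8 small heat shock proteins 3 were higher and none lower. HSP90, BAG proteins and their partners had 8 of 17 higher, DNAJ co-chaperones 3 of 16, and chaperonins and mitochondrial chaperones 2 of 17, with no member of these 3 lists lower. Hspa12a was not called without control replicate 2 or co-treated replicate 2, and the chaperonin count was 4 without control replicate 1. These counts stand against the 4.88% of all genes called higher, and that of the chaperonins was not far above it.

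Hspa1b, the near-identical neighbour of Hspa1a, had levels of 8.32 and 8.46 in controls and 12.49 and 12.45 with both drugs (4.08 ± 0.13, adjusted p = 9.72e-14). Because these 2 HSP70 genes share most of their sequence, their probe sets may partly read each other's transcripts. Hsph1, an HSP110 nucleotide exchange factor, rose from 7.78 and 7.53 to 11.09 and 11.15, an 11.0-fold change, and Hspb1, a small heat shock protein, rose from 3.57 and 3.67 to 7.50 and 6.79 (11.6-fold). Dnajb1, the main HSP40 partner of HSP70, rose from 7.54 and 7.47 to 9.92 and 10.09 (2.50 ± 0.11, adjusted p = 4.06e-12). The inducible HSP90 gene Hsp90aa1 gained 2.08 ± 0.11, the co-chaperone Bag3 gained 1.87 ± 0.10, Dnaja4 gained 2.09 ± 0.17, and the HSP90 partner Chordc1 gained 1.07 ± 0.10.

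Chaperones of the mitochondrial matrix were split. Hspe1 and Hspd1, which together form the HSP10/HSP60 folding chamber and are transcribed from 1 shared promoter, rose by 1.34 ± 0.12 (adjusted p = 8.72e-08) and 0.90 ± 0.10 (adjusted p = 1.35e-06). Hspa9, the mitochondrial HSP70, was at 11.90 and 12.04 in controls and 11.94 and 12.03 with both drugs, a change of 0.01 ± 0.09. The small heat shock protein Cryab, abundant in control adipocytes at 9.26 and 9.14, rose to 10.64 and 10.55 (1.39 ± 0.11, adjusted p = 2.37e-08), and Hspb8 rose by 1.07 ± 0.13. In the endoplasmic reticulum the list of chaperones and unfolded protein response genes had 1 of 25 members higher and 1 lower. This list had 8% called, near the 9.13% of all genes, and a median change of 0.03. Its lower member was Sel1l (−0.54 ± 0.11), not called without control replicate 2, and its higher member, Hspa5 (BiP), went from 9.46 and 9.47 to 10.18 and 9.85 (0.55 ± 0.11, adjusted p = 0.00143) and lost its call without co-treated replicate 1.

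Promoter stretches of chaperone genes are shown because HSF1 binds inverted repeats of GAA, and of redox genes because NRF2 binds antioxidant response elements. RefSeq promoters (GRCm38.p6) were searched on both strands over the 250 bases before each start for GAANNTTC (2 GAA units), GAANNTTCNNGAA (3 units), TGACNNNGC (the antioxidant core) and TGANTCA (AP-1). The 3-unit motif contains the 2-unit motif. In the lines below capitals mark matched letters, each stretch reads 5′ to 3′ on the gene's strand, and Hspa1a lies at chr17:34972229-34972284 (− strand), Hspa1b at chr17:34959311-34959366 (− strand), Hspb1 at chr5:135887778-135887853 (+ strand), Hspe1 at chr1:55088035-55088100 (+ strand), Gclm at chr3:122245399-122245455 (+ strand) and Txnrd1 at chr10:82859090-82859146 (+ strand).
Hspa1a: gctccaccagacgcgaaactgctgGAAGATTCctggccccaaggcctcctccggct
Hspa1b: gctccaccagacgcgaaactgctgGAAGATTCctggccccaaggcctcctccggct
Hspb1: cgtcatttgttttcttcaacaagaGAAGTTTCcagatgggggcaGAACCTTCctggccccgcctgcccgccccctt
Hspe1: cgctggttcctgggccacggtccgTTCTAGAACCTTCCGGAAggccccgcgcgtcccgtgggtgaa
Gclm: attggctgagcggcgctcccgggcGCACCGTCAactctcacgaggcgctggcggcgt
Txnrd1: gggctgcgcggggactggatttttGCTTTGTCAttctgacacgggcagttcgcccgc

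The stretches of Hspa1a and Hspa1b were letter for letter the same, and the Hspe1 stretch is also, read on the other strand, part of the Hspd1 promoter. Of the 18 chaperone genes called higher that had a promoter entry, 6 held the 2-unit motif (Hspa1a, Hspa1b, Hspb1, Hspe1, Hspd1 and Dnaja4), against 6.95% of the 16610 tested genes that had an entry. The 3-unit motif was in 2 of the 18, Hspe1 and Hspd1, and in 0.518% of those genes, while 2 held the antioxidant core. Among 21 redox genes called higher, 5 held the antioxidant core (Gsta3, Gclm, Sesn2, Txnrd1 and Abcc4), which 12.3% of tested genes with an entry held, and 4 held the AP-1 letters (Aox1, Srxn1, Mgst2 and Gstp1), held by 7.45%. Abcc4 was called at 0.69 ± 0.20 and not on leaving out control replicate 1 or either co-treated array. A match of letters is a description and not a bound site.

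Redox genes that were called were mostly higher. Among quinone, aldehyde and carbonyl reductases 7 of 17 were higher and 1 lower, among glutathione transferases 6 of 17 were higher and none lower, and among thioredoxins, peroxiredoxins, superoxide dismutases and catalase 5 of 20 were higher and 2 lower. The lower members were the reductase Akr1c14 (−1.20 ± 0.22) and, near the size threshold, Sesn3 and Sod3 (both −0.56), neither of which was called without control replicate 1, Sesn3 not without co-treated replicate 1 and Sod3 not without co-treated replicate 2. Genes of glutathione synthesis, recycling and breakdown had 7 of 24 higher and 2 lower, which became 4 higher without co-treated replicate 2. Medians of these 4 lists lay between 0.16 and 0.30, above the 0.01 of all genes.

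Of the genes for the drugs' own targets, Txnrd1 and Gsr were called higher and Txnrd2 was not called. Txnrd1, the cytosolic thioredoxin reductase, read 8.29 and 8.28 in controls and 9.77 and 9.92 with both drugs (1.56 ± 0.11, adjusted p = 3.8e-09). Txnrd2, the mitochondrial form, was at 6.19 and 6.36 in controls and 6.08 and 6.09 with both drugs (−0.19 ± 0.11, adjusted p = 0.292). Gsr, glutathione reductase, went from 10.14 and 10.26 to 10.69 and 10.74, a change of 0.52 ± 0.10 (adjusted p = 0.00153) that only just exceeded the size threshold and lost its call without control replicate 1 or without co-treated replicate 2. Of the proteins these enzymes serve, Txn1 (thioredoxin) rose by 0.65 ± 0.11, while the peroxiredoxins Prdx2 and Prdx3 changed by 0.25 ± 0.10 and 0.37 ± 0.09 and were not called.

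Glutathione supply showed rises at import and at synthesis. Gclm and Gclc, the subunits of the rate-limiting glutamate-cysteine ligase, rose by 1.48 ± 0.10 (9.89 and 9.97 to 11.38 and 11.44) and 1.13 ± 0.10 (8.27 and 8.27 to 9.39 and 9.42). Slc7a11, the cystine importer, rose from 4.45 and 5.28 to 7.01 and 7.09 (2.19 ± 0.26, adjusted p = 4.77e-06), its control arrays being the most widely spaced of these genes. Chac1, which breaks glutathione down, also rose, by 1.17 ± 0.14, whereas the ectopeptidase Anpep fell by 1.48 (7.06 and 7.06 to 5.49 and 5.68). Among enzymes that use or protect thiols, Gsta3 rose from 4.38 and 4.55 to 6.35 and 7.08 (2.25 ± 0.22), Gstp1 rose by 0.94 ± 0.13 and the sulfiredoxin Srxn1 by 1.30 ± 0.16.

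Hmox1 and Nqo1, the haem oxygenase and quinone reductase used as NRF2 reporters, rose by 2.48 ± 0.16 (10.25 and 10.26 to 12.77 and 12.69) and by 2.27 ± 0.15 (7.56 and 7.93 to 9.97 and 10.05). The carbonyl reductase Cbr3 rose by 1.76 ± 0.15 and the leukotriene-degrading reductase Ptgr1 by 1.54 ± 0.21. The NRF2 gene itself, Nfe2l2, read 9.68 and 9.64 in controls and 10.15 and 10.06 with both drugs, a change of 0.45 ± 0.08 (adjusted p = 0.000315) below the size threshold. Bach1, a haem-sensitive repressor of the same elements, rose by 0.89 ± 0.12, and the small Maf partner Maff by 1.54 ± 0.21. Catalase (Cat), an antioxidant enzyme with a high array level here, changed by 0.03 ± 0.08 from levels of 12.50 and 12.50.

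**Figure D2:**
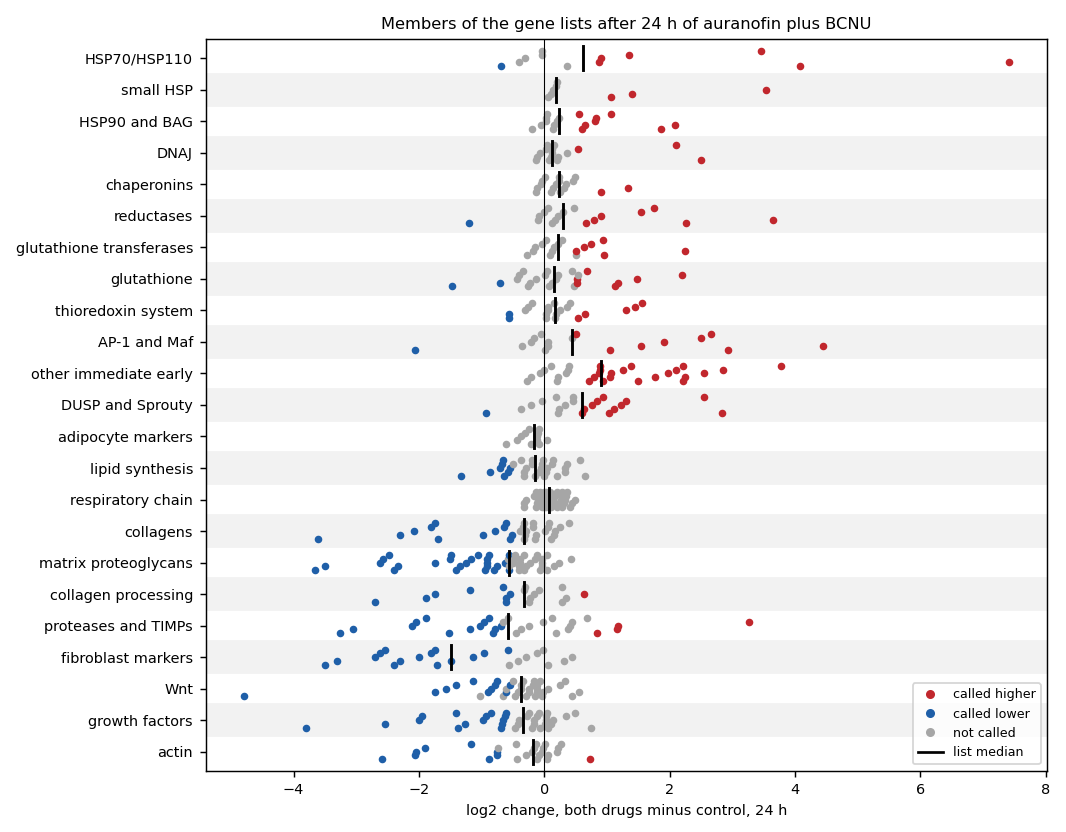
Log2 change after 24 h of both drugs against control for every measured member of 23 gene lists, with called members in red (higher) or blue (lower), others in grey and the list median as a black bar. Chaperone, redox, AP-1, immediate early and phosphatase lists extend further to the right than to the left. Collagen, collagen processing, proteoglycan, fibroblast, Wnt, growth factor and actin lists extend further to the left. The protease and TIMP list extends about equally both ways, from −3.26 to 3.26. Adipocyte marker and respiratory chain lists have no called member.

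Genes of protein turnover that were called were mostly higher. In the ubiquitin and autophagy list 15.4% were called, in the proteasome list 12.1% and among cytosolic ribosomal proteins 6.67%, against 9.13% of all genes. Among 26 ubiquitin and autophagy genes 4 were higher and none lower, and 1 lower without co-treated replicate 2. The higher members were the LC3-family gene Gabarapl1 (1.19 ± 0.10), the receptor Sqstm1 (p62; 10.42 and 10.62 to 11.63 and 11.64, 1.11 ± 0.10), Atg14 (0.98 ± 0.12) and Atg12 (0.94 ± 0.11). Of 33 proteasome subunits 4 were higher and none lower, a share not far above background, and 2 without control replicate 2. Their median change was 0.24, and the largest was 0.63 ± 0.10 for Psmb2. Cytosolic ribosomal protein genes had 1 of 30 higher (Rps20, 0.60 ± 0.13) and 1 lower (Rpl3, −0.57 ± 0.18), the latter not called on leaving out any of the 4 arrays.

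The integrated stress response, in which phosphorylated eIF2 favours translation of ATF4, was mixed at 24 h. Ppp1r15a (GADD34, which reverses the phosphorylation) rose from 5.83 and 6.17 to 8.34 and 8.45 (2.40 ± 0.19, adjusted p = 1.47e-08), Ddit3 (CHOP) from 8.35 and 8.63 to 9.94 and 9.77 (1.36 ± 0.18), and Sesn2 from 7.16 and 6.98 to 8.59 and 8.46 (1.46 ± 0.16). Atf4 itself gained 0.62 ± 0.13 and lost its call without co-treated replicate 1. The ATF4 targets Asns and Trib3 changed by 0.00 ± 0.10 and 0.31 ± 0.21 and were not called, and over 20 such genes 4 were higher, 1 (Vldlr, −0.53 ± 0.09) was lower and the median was −0.03, with 3 lower without co-treated replicate 2 and none without co-treated replicate 1 or control replicate 2. Amino acid transport and synthesis had 7 of 28 higher and 1 lower, which became 3 higher without co-treated replicate 2 and 4 without control replicate 2. Its lower member Slc38a4, a neutral amino acid transporter, went from 6.68 and 6.73 to 5.34 and 5.37.

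Stress-induced transcription factors that were called were nearly all higher after a day. Of 17 AP-1 and small Maf genes 8 were higher and 1 lower (median 0.45), and of 30 other immediate early genes 20 were higher and none lower (median 0.91), 66.7% against 9.13% of all genes called. Fos read 4.28 and 4.55 in controls and 7.42 and 7.26 with both drugs (2.92 ± 0.16, adjusted p = 3.13e-11), and Jun read 7.58 and 7.59 against 10.24 and 9.93 (2.49 ± 0.16). Fosb, with 3.36 and 3.34 against 5.82 and 6.20, and Junb, with 4.68 and 4.41 against 6.47 and 6.45, rose as well. Atf3, a stress-induced repressor, had the largest change of the list, from 4.99 and 5.08 to 9.60 and 9.37 (4.45 ± 0.23, adjusted p = 3.07e-11). The single member that fell was Maf, a large Maf factor, from 7.07 and 7.13 to 5.14 and 4.94 (−2.06 ± 0.14).

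Among the other immediate early genes, Egr1 rose from 5.81 and 5.89 to 9.73 and 9.51 (13.6-fold), Ier5 from 5.25 and 5.24 to 7.30 and 7.67, Ier2 from 5.93 and 5.88 to 7.88 and 7.87, and the polo-like kinase gene Plk3 from 4.85 and 4.86 to 7.82 and 7.58. Zfp36 (tristetraprolin, which shortens AU-rich mRNAs) rose by 2.1 and Csrnp1 by 2.55. Among brakes on the MAP kinases, 11 of 21 dual-specificity phosphatase and Sprouty-related genes were higher and 1 lower, led by Dusp5, which acts on nuclear ERK (4.91 and 4.95 to 7.61 and 7.94, 2.84 ± 0.20). Gadd45b rose by 2.55 ± 0.15, Dusp4 by 1.31 ± 0.12 and Dusp6 by 1.23 ± 0.12.

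Inflammatory genes were called in both directions. Of 36 chemokine, cytokine and NF-κB feedback genes 5 were higher and 3 lower, with a median of 0.10. The neutrophil chemokine Cxcl1 rose from 4.04 and 3.48 to 6.64 and 6.64 (2.88 ± 0.28, adjusted p = 3.78e-07), the prostaglandin synthase Ptgs2 rose by 2.80 ± 0.37 and the alarmin Il33 by 1.85 ± 0.19. In the other direction Cxcl12, the stromal chemokine that ligates CXCR4, fell from 10.39 and 10.19 to 8.09 and 7.69 (−2.40 ± 0.13, adjusted p = 4.93e-11). Ccl2 was at 4.25 and 4.87 in controls and 5.44 and 5.34 with both drugs and was not called (adjusted p = 0.0712). It was called without control replicate 2 (adjusted p = 0.0498), with only genes above the median level tested (0.0389) and under a trended, robust variance prior (0.0404).

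The EGF family and the urokinase system also held calls in both directions. Hbegf, a ligand of the EGF receptor, rose from 3.15 and 3.76 to 4.63 and 5.08 (1.40 ± 0.25), while the receptor gene Egfr fell from 8.02 and 7.89 to 6.84 and 6.62 (−1.23 ± 0.11) and the neuregulin Nrg1 from 8.07 and 7.95 to 6.5 and 6.48 (−1.52 ± 0.11). Plaur, the urokinase receptor, rose from 3.81 and 4.51 to 6.03 and 6.60 (2.16 ± 0.27), whereas the tissue plasminogen activator Plat fell from 6.37 and 6.4 to 4.73 and 5.06 (−1.49 ± 0.25). Of 13 EGF-family genes 3 were higher and 2 lower, and of 12 urokinase and serpin genes likewise 3 and 2. Among 21 adipokines 2 were higher and none lower, 9.52% called and so near the 9.13% of all genes. Lcn2 (lipocalin-2) went from 6.03 and 6.44 to 8.10 and 8.10 (1.86 ± 0.19).

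Interferon-stimulated genes moved only downwards where they were called: 6 of 27 were lower and none higher (median −0.36). Ifit1 fell from 6.58 and 6.24 to 3.50 and 2.72 (−3.30 ± 0.56, adjusted p = 0.000348), and the oligoadenylate synthetase-like gene Oasl2 from 4.83 and 5.04 to 2.71 and 2.97 (−2.09 ± 0.40, adjusted p = 0.00101). Both genes also had low levels with auranofin alone (4.11 and 4.04 for Ifit1, 3.08 and 3.49 for Oasl2) and were not called between both drugs and auranofin. Usp18 was called at −1.57 ± 0.40 but lost its call without co-treated replicate 2 and without control replicate 2.

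Markers of other cell types were read beside P2rx7, Cd68 and Pecam1, which are best known from leukocytes and endothelium. Cd68, a lysosomal membrane protein, rose from 4.86 and 4.64 to 7.58 and 7.55 (2.81 ± 0.24, adjusted p = 4.16e-08), and Pecam1, an adhesion molecule, from 4.04 and 3.6 to 7.13 and 6.38 (2.94 ± 0.27, adjusted p = 1.43e-07). Over the whole lists, 4 of 14 macrophage markers were higher (Cd68, Itgam, Cd14 and Mrc1) and 1 was lower (Lyz2), at mean levels of 2.94 and 3.11 in controls and 3.47 and 3.41 with both drugs, and 2 of 10 endothelial markers were higher (Pecam1 and Kdr) and none lower, at means of 2.52 and 2.38 against 2.77 and 2.72. Of these, Cd14 lost its call without control replicate 1, Mrc1 without co-treated replicate 1, Kdr without co-treated replicate 1 or control replicate 2, and Lyz2 without co-treated replicate 2 or either control replicate. One endothelial marker was lower on leaving out either control array or co-treated replicate 2, Tek in the case of control replicate 1. By their means over the 4 arrays, 11 of the 14 macrophage markers and 9 of the 10 endothelial markers were under the median level over all genes and arrays. This held for 0 of the 12 adipocyte markers. Of the macrophage markers 3, and of the endothelial markers 5, were at or under the background mark. Among those under it with both drugs were the macrophage genes Adgre1 (1.88 and 1.74) and Ptprc (2.05 and 2.21) and the endothelial genes Cdh5 (2.17 and 2.33), Tek (2.04 and 1.85) and Tie1 (1.72 and 1.76), while Csf1r, at 2.54 and 2.43, was just above it. The part of other cell types in these rises was not tested. In the purinergic list 11.8% of members were called, near the 9.13% of all genes. Of 17 purinergic receptor and ectonucleotidase genes P2rx7 was the only one higher, P2rx3 was lower (−0.57 ± 0.16, not called without co-treated replicate 1 or control replicate 2), and P2rx4, the adjacent family member, changed by 0.17 ± 0.10 from 9.04 and 9.03.

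The list of matrix proteoglycans and glycoproteins held more lower members than any other of the 61 lists. Of its 49 members 25 were lower and none higher (median −0.57), against 4.25% of all genes called lower. Collagens had 12 of 30 lower and none higher (median −0.33), and collagen processing enzymes 8 of 18 lower and 1, Pcolce2, higher, the latter not called without co-treated replicate 1 or either control replicate. Matrix proteases and TIMPs had 13 of 29 lower and 4 higher.

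The largest collagen falls were in Col11a1, Col1a1, Col12a1, Col1a2 and Col3a1. Col1a1, the main chain of type I collagen, read 10.90 and 10.83 in controls and 8.60 and 8.54 with both drugs (−2.30 ± 0.10, adjusted p = 1.7e-12), a 4.91-fold fall. Col1a2, its partner chain, fell 3.51-fold, Col3a1 3.36-fold, Col12a1 4.23-fold and Col11a1 12.3-fold (6.84 and 6.43 to 3.31 and 2.73). The basement membrane chains Col4a1 (9.89 and 9.79 to 9.46 and 9.53, −0.34 ± 0.09) and Col4a2 (−0.39 ± 0.09) stayed within the size threshold. Lox, which cross-links collagen, fell from 10.05 and 10.12 to 7.36 and 7.41 (−2.70 ± 0.13, adjusted p = 9.29e-12), and the prolyl hydroxylase subunit P4ha3 fell by 1.75.

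Small leucine-rich proteoglycans were unequal among themselves. Dcn (decorin) fell from 10.78 and 10.79 to 8.24 and 8.07 and Lum (lumican) from 7.16 and 7.38 to 4.74 and 5.0, changes of −2.63 ± 0.11 and −2.40 ± 0.15. Bgn (biglycan), with the highest array level of those named here, was at 13.21 and 13.27 in controls and 12.79 and 12.89 with both drugs. It was not called at −0.40 ± 0.08. Among glycoproteins Postn (periostin) fell 11.3-fold (11.18 and 11.07 to 7.73 and 7.52), Thbs2 2.84-fold and Fn1 (fibronectin) 1.94-fold, while Sparc, at −0.32 ± 0.09, and the laminin-binding Nid1, at −0.07 ± 0.08, were not called.

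Matrix proteases and their inhibitors changed in both directions. Mmp2, the abundant gelatinase, fell from 10.17 and 10.26 to 7.08 and 6.83 (−3.26 ± 0.16), as did its membrane-bound activator Mmp14, from 9.73 and 9.72 to 7.56 and 7.8, and the inhibitors Timp2 (9.09 and 9.13 to 6.95 and 7.06) and Timp3 (7.06 and 7.30 to 3.79 and 4.46). Mmp13, the collagenase, rose by as much as Mmp2 fell, from 3.81 and 3.72 to 6.95 and 7.10 (3.26 ± 0.28, adjusted p = 7.2e-08). Timp1 rose too, by 1.18 ± 0.18 (5.95 and 5.78 to 7.03 and 7.06).

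The preadipocyte and fibroblast markers had the lowest median of the 61 lists, −1.49, with 15 of 23 lower and none higher, and 1 higher without co-treated replicate 2 or control replicate 2. Pdgfra, the receptor that marks adipocyte progenitors, fell from 10.10 and 10.24 to 7.48 and 7.79 (−2.53 ± 0.13), Dlk1 (Pref-1) from 9.14 and 9.19 to 6.37 and 6.58 (−2.69 ± 0.13), and Islr from 7.88 and 7.66 to 4.36 and 4.56 (−3.31 ± 0.15). Of the nuclear factors of the list, Prrx1 fell by 0.96, and Twist1, at −0.41 ± 0.12, was called only without control replicate 2 (−0.50). The fibroblast list shares members with the matrix lists, among them Col1a1, Col1a2, Col3a1, Postn, Dcn and Lum. Falls in these lists are therefore not separate observations. Whether the arrays held fewer fibroblast-like cells or less RNA of these genes per cell was not tested.

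Wnt and growth factor genes were called only lower with all arrays in the fit. Wnt ligands, receptors and modulators had 11 of 37 lower and none higher (median −0.36), and growth factors with their receptors had 15 of 36 lower and none higher (median −0.34). A member of each list was higher without co-treated replicate 1, 1 of the Wnt list without control replicate 1 and 2 of the growth factor list without control replicate 2. Besides Sfrp2, Wnt5a fell by 1.14, the receptor Fzd2 by 1.41 and the R-spondin Rspo2 by 1.75 (5.67 and 5.91 to 4.38 and 3.72). Gas6, ligand of the TAM receptors, fell from 10.04 and 9.95 to 8.02 and 8.08 (−1.94 ± 0.11), Fgf7 fell by 1.26 and Pdgfrb fell 4.01-fold, whereas Vegfa and Igf1 changed by −0.25 ± 0.08 and −0.28 ± 0.09 and were not called.

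The TGF-β and BMP pathway had 15 of 45 genes lower and 4 higher, the latter 2 without control replicate 1 or without co-treated replicate 2. Fstl1, a secreted follistatin-like protein, fell from 9.36 and 9.23 to 6.42 and 6.43 (−2.87 ± 0.12, adjusted p = 1.76e-12), and the activin antagonist Fst fell by 1.59. The inhibitor of differentiation Id3 rose from 5.93 and 5.98 to 7.69 and 7.43 (1.6 ± 0.26). Sema3a, a repulsive guidance cue, fell from 7.83 and 7.72 to 5.17 and 4.98 (−2.70 ± 0.13), and it had the largest change of 34 semaphorins, ephrins and plexins, 9 of which were lower. The single higher member, Sema6a (1.28 ± 0.36), was not called without co-treated replicate 1 or either control replicate.

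Of 26 actin cytoskeleton and contractile genes 8 were lower and 1, the LIM protein gene Fhl1 (0.74 ± 0.14), was higher, with a median of −0.18. Acta2, smooth muscle actin, read 10.44 and 10.85 in controls and 8.72 and 8.75 with both drugs (−1.91 ± 0.14, adjusted p = 6.82e-09). Myl9, a myosin light chain, read 8.10 and 7.96 against 6.17 and 5.75 (−2.06 ± 0.19). Fhl2, a LIM-domain cofactor, read 8.16 and 7.97 against 5.47 and 5.50 (−2.58 ± 0.14). Vimentin (Vim, 0.04 ± 0.07) and Actn4 (−0.04 ± 0.09) were not called. Of the tubulins, Tuba1a fell 3.80-fold (7.31 and 7.01 to 5.16 and 5.31) while Tuba1c rose 1.79-fold.

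The main adipocyte identity genes were not called. Only 9.13% of all genes were called, so that a lack of calls among the 12 adipocyte markers says little. Their median change was −0.17. Fabp4, the adipocyte fatty acid binding protein, read 13.20 and 13.14 in controls and 13.17 and 13.24 with both drugs (0.04 ± 0.09), and Pparg, the master regulator of fat cell differentiation, 12.16 and 12.14 against 12.04 and 12.10 (−0.08 ± 0.08). Adipoq (adiponectin) changed by −0.24 ± 0.09 (adjusted p = 0.085) and Cebpa by −0.37 ± 0.10 (adjusted p = 0.0201), the latter below the size threshold. Respiratory chain subunits had none of 48 called, with a median of 0.07, and 1 higher without control replicate 1.

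Fatty acid and triglyceride synthesis had 8 of 31 lower and none higher (median −0.15): Fasn, the fatty acid synthase, fell from 12.22 and 12.17 to 11.51 and 11.52 (−0.68 ± 0.09), Dgat2 by 0.64, Lpin1 by 0.71 and the glyceroneogenic enzyme Pck1 by 1.33, while the desaturase Scd1 was at 13.34 and 13.28 against 13.29 and 13.24. In lipid droplets the lipase inhibitor G0s2 fell by 0.95 ± 0.10. Insulin signalling and GLUT4 traffic had 5 of 40 lower and 1 higher, with 8 lower without co-treated replicate 2 and 2 higher without co-treated replicate 1 or control replicate 2. Irs1, the insulin receptor substrate, read 7.09 and 7.09 in controls and 6.08 and 6.25 with both drugs (−0.93 ± 0.16, adjusted p = 0.00034), Slc2a4 (GLUT4) 9.90 and 9.90 against 9.54 and 9.41 (−0.43 ± 0.09, adjusted p = 0.00162), below the size threshold, and Socs3, an inhibitor of cytokine and insulin receptors, rose by 1.6 ± 0.21.

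Adipogenic transcription factors had 8 of 26 lower and 1 higher, and 2 higher without co-treated replicate 1 or control replicate 2. The coactivator genes Ppargc1a and Ppargc1b, which drive mitochondrial genes, fell by 1.00 (7.62 and 7.73 to 6.59 and 6.75) and 0.91 (7.86 and 7.86 to 6.80 and 7.11). Klf5, an early factor of differentiation, rose from 5.14 and 5.50 to 7.38 and 7.44 (2.09 ± 0.17, adjusted p = 2.18e-08). Among clock genes 5 of 17 were higher and 1 lower, with the repressor Ciart up by 1.43 ± 0.16, and 3 higher without co-treated replicate 1.

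BCNU alkylates DNA, and damage-response genes were examined for that reason. Of 27 p53 targets 5 were higher and 1 lower (median −0.14). The 5 were Plk3, Btg2, Sesn2, Tnfrsf10b and Ephx1, several of which are also counted in the stress lists above, and Mdm2, the p53-induced ubiquitin ligase, changed by 0.29 ± 0.08 from 12.47 and 12.37, below the size threshold. Ccng1, at −0.14 ± 0.07, was not called. Of 29 genes for repair of alkylation and crosslinks 3 were higher (Brip1, Ercc1 and Fancd2) and 1 lower (Brca2), the higher count falling to 1 without co-treated replicate 1 or without control replicate 1 and the lower one to none without co-treated replicate 2 or control replicate 2, and Mgmt, which removes alkyl groups from guanine, changed by −0.11 ± 0.16 from 6.85 and 6.84. Replication and mitosis genes had 7 of 44 higher and 2 lower, among them Mcm5 (4.06 and 4.45 to 6.08 and 5.89), with 4 higher and 1 lower without co-treated replicate 1. The median change of the replication and mitosis list from control was 0.17 with both drugs, 0.30 with auranofin and 0.34 with BCNU. Co-treated cells had 2 of its members higher and 8 lower than auranofin-treated cells, and 2 higher and 7 lower than BCNU-treated cells. In the BCL2 and caspase list 4 of 27 were higher and 1 lower, with Casp4 up by 1.37 ± 0.18 and the pro-apoptotic Bcl2l11 (Bim) down by 0.84. The counts against control in the p53, repair, replication and BCL2 lists stand beside the 9.13% of all genes called in either direction. The called share of the repair list was the nearest to it and not far above, so that its calls say little.

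Probe sets for 458 miRNA genes were tested, and 36 of them (7.86%) were called, 11 higher and 25 lower, a share below the 9.13% of all genes. Which of the hairpin, the primary transcript and the mature form such a probe set reads cannot be told apart. Those described here were picked after their values were seen, because they share clusters or seeds, and their mature sequences from RefSeq (GRCm38.p6) are shown with the seed, bases 2 to 8, in capitals.
let-7c-5p: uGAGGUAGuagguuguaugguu
let-7a-5p: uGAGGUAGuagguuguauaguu
miR-99a-5p: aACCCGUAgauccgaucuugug
miR-100-5p: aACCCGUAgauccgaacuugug
miR-130a-3p: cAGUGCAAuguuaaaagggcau
miR-301a-3p: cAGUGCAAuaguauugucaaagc
miR-721: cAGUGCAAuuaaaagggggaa

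The largest fall was in a cluster on chromosome 16. Mirlet7c-1 (chr16:77599657-77599750) read 6.0 and 5.83 in controls and 2.91 and 3.69 with both drugs (−2.61 ± 0.27, adjusted p = 7.15e-07), and its neighbour Mir99a (chr16:77598936-77599000) 7.22 and 7.71 against 5.45 and 5.78 (−1.85 ± 0.23, adjusted p = 8.52e-06). Mir100, which has the miR-99a seed, was lower by −1.04 ± 0.33, and of the 3 that share the seed AGUGCAA, Mir721 was lower by −1.42 ± 0.38, Mir130a by −1.05 ± 0.24 and Mir301 by −0.96 ± 0.26. The latter 4 were near the threshold: Mir100 and Mir721 were not called on leaving out any of the 4 arrays, Mir130a not without co-treated replicate 1 or control replicate 1, and Mir301 not without either control replicate or co-treated replicate 1. Seed sharing did not fix the direction: Mirlet7a-1, with the let-7c seed, rose from 5.12 and 4.58 to 6.33 and 5.91 (1.27 ± 0.23, adjusted p = 0.000673). Mir218-1, which lies inside Slit2, fell by 2.26, with no call without control replicate 2, beside a fall of 2.97 in Slit2. By position alone, without regard to strand, 15 called miRNA genes lay inside another tested gene. That gene was called in the same direction for 5 of them, in the opposite direction for none, and was not called for 10. Some of these pairs may lie on opposite strands, so that the gene is not a host transcript.

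**Figure D3:**
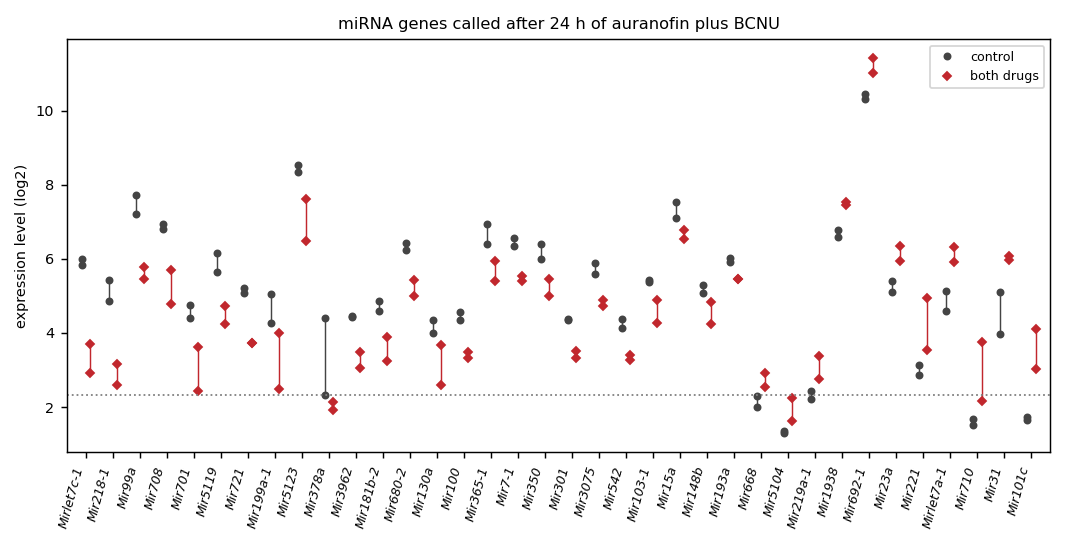
Log2 expression level on each control and co-treated array at 24 h of the 36 called miRNA genes, ordered by change, with the 2 arrays of a group joined by a line and the background mark dotted. Most of the 25 lower genes started well above the mark, while 6 of the 36 had their lower group near background.

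Each drug alone for 24 h served to place the co-treatment, these comparisons sharing the co-treated arrays. Against auranofin alone 1596 genes were called (7.42% of those tested), 799 higher (3.72%) and 797 lower (3.71%) in co-treated cells, and against BCNU alone 1783 (8.29%), 943 higher (4.38%) and 840 lower (3.91%). The interaction tests whether the co-treated change differs in either direction from the sum of the single-drug changes on the log2 scale. It was called for 810 genes (3.77%), 377 positive (1.75%) and 433 negative (2.01%).

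Hmox1, Gclm and Nqo1 were not called between both drugs and auranofin alone. Hmox1 read 12.75 and 12.70 with auranofin, 10.74 and 10.47 with BCNU and 12.77 and 12.69 with both (difference between both and auranofin 0.01 ± 0.16, interaction −0.34). Gclm likewise read 11.69 and 11.42 with auranofin and 11.38 and 11.44 with both (difference −0.15 ± 0.10), and Nqo1 10.62 and 10.35 against 9.97 and 10.05 (−0.47 ± 0.15). For Gsta3 co-treated cells, at 6.35 and 7.08, were lower than the 7.53 and 7.31 of auranofin alone, with an interaction of −1.65. Txnrd1 was higher with both drugs, at 9.0 and 9.07 with auranofin, 8.21 and 8.30 with BCNU and 9.77 and 9.92 with both (adjusted p = 4.1e-05 against auranofin, interaction 0.84). By list, glutathione transferases had 1 of 17 members higher and 2 lower in co-treated than in auranofin-treated cells, and glutathione synthesis, recycling and breakdown had 1 of 24 higher (Chac1, by 1.06 ± 0.14) and 6 lower, among them Anpep (−1.38 ± 0.14) and Abcc4 (−1.09 ± 0.20).

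Several chaperones and early genes had single-drug levels nearer to control than to both drugs. Hspb1 was at 4.69 and 5.05 with auranofin and 3.73 and 3.92 with BCNU, against 7.50 and 6.79 with both, an interaction of 2.07. Dnajb1 read 7.98 and 7.97 with auranofin and 7.45 and 7.6 with BCNU, and Fos, at 4.52 and 4.39 with auranofin and 4.29 and 4.42 with BCNU, was close to its control level with either drug alone (interaction 2.94). Egr1 had an interaction of 3.30 and Atf3 of 3.45. Of 30 immediate early genes 19 were higher in co-treated than in auranofin-treated cells and 20 higher than in BCNU-treated cells, and 12 had a called positive interaction and none a negative one. Cryab, with 9.29 and 9.13 for auranofin and 9.24 and 9.36 for BCNU, showed the same pattern (interaction 1.29). Hspa1b stood between, with 10.55 and 10.53 for auranofin (interaction 1.76).

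**Figure D4:**
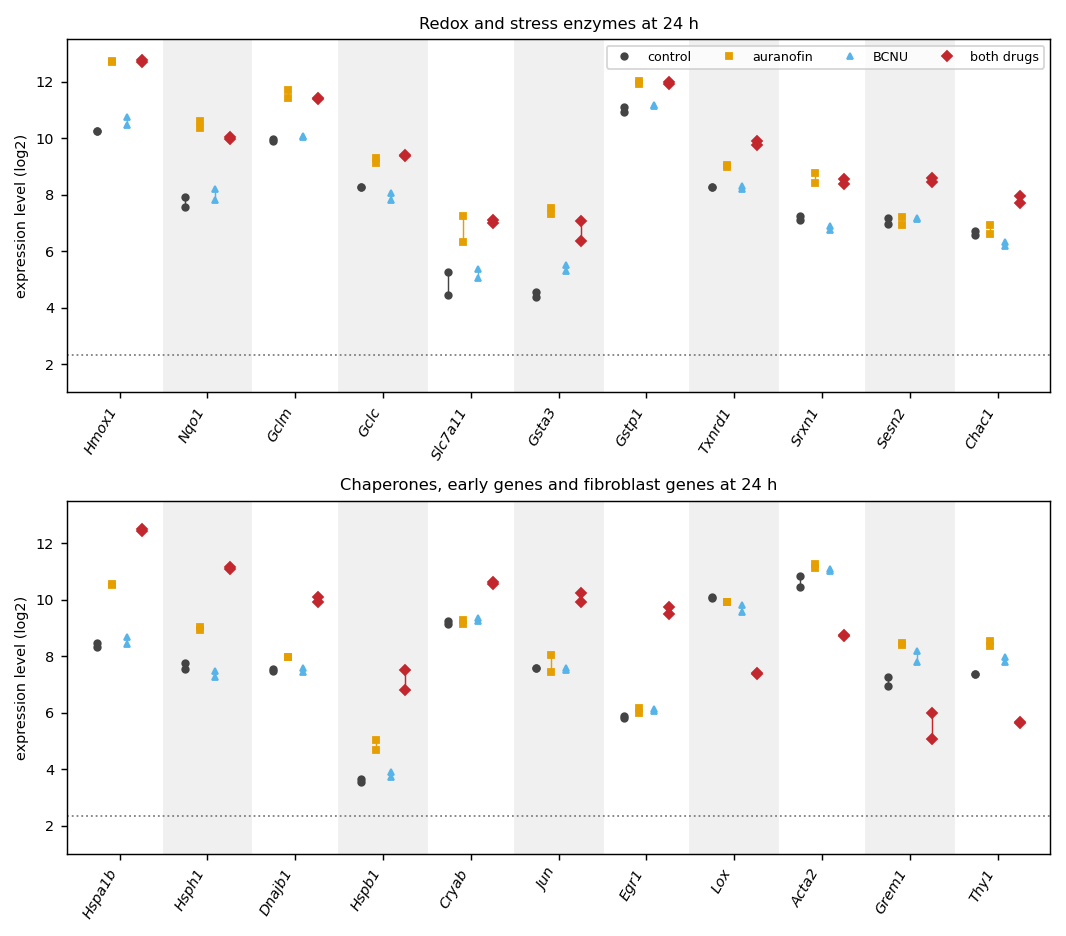
Log2 expression level on each 24 h array of control, auranofin, BCNU and both drugs for 11 redox and stress enzymes (top) and for chaperones, early genes and fibroblast genes (bottom), replicate arrays joined by a line and the background mark dotted. Auranofin arrays sit with the co-treated arrays for Hmox1, Gclm and Gstp1, whereas for Dnajb1, Cryab and Egr1 they sit with the controls, and for Grem1 and Thy1 the single-drug arrays lie above the controls and the co-treated arrays below.

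Some genes had single-drug levels above control and co-treated levels below it, the single-drug differences from control not being tested. Grem1, a BMP antagonist, read 6.96 and 7.28 in controls, 8.39 and 8.48 with auranofin, 7.79 and 8.19 with BCNU and 5.09 and 5.99 with both (interaction −3.77). Thy1, a fibroblast surface marker, read 7.36 and 7.38, 8.55 and 8.36, 7.78 and 7.97, and 5.68 and 5.64 in the same order (interaction −3.31). Acta2 followed this order, at 11.12 and 11.27 with auranofin and 11.09 and 11.03 with BCNU against 8.72 and 8.75 with both (interaction −2.88), and so did the G1 cyclin Ccnd1, at 7.47 and 7.92 with auranofin and 7.30 and 7.63 with BCNU against 5.28 and 6.01 (interaction −2.67). Of the 26 actin and contractile genes 14 were lower in co-treated than in auranofin-treated cells, and 12 had a called negative interaction and none a positive one.

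Ptn, Col1a1 and Ogn had single-drug levels between those of control and of both drugs. Ptn was at 11.32 and 11.29 with auranofin and 11.02 and 11.13 with BCNU, against 7.88 and 7.76 with both drugs (interaction −2.94). Col1a1 was at 10.48 and 10.60 with auranofin and 10.52 and 10.55 with BCNU (interaction −1.64). Ogn, at 9.59 and 9.36 with auranofin and 9.05 and 8.92 with BCNU, was the one whose single-drug levels lay furthest below control among these 3, and its interaction was −1.16. Of 30 collagens 10 had a called negative interaction, and of 23 fibroblast markers, some of them the same genes, 13.

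The effect of co-treatment at 24 h was set against that at 8 h, each taken from the controls of its own time. The 2 effects differed for 584 genes (2.72% of those tested), 295 with a higher (1.37%) and 289 with a lower (1.34%) effect at 24 h. This count was 347 without co-treated 24 h replicate 2, 353 without control 24 h replicate 2, 375 without control 8 h replicate 1 and 322 without control 8 h replicate 2, and 115 when only the arrays of the contrast were fitted.

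Some of the largest rises were late. Hspa1a changed by 1.16 at 8 h and by 7.41 at 24 h (difference 6.25 ± 0.57), P2rx7 by 0.66 and 5.82 (5.16 ± 0.33), Hspb1 by 0.59 and 3.53 (2.94 ± 0.25) and Serpinb2 by 0.08 and 3.54 (3.46 ± 0.31). Cryab had no 8 h change (−0.04) before its 24 h rise (difference 1.43 ± 0.16). Il13ra1, an interleukin receptor chain, was lower at 8 h (−1.44) and higher at 24 h (1.76). Not all chaperones rose late: Dnajb1 changed by 2.58 at 8 h and 2.50 at 24 h.

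Of the 30 immediate early genes 5 had a lower effect at 24 h than at 8 h and 2 a higher one, with a median difference of −0.12, and of the 17 AP-1 and small Maf genes 2 had a lower one and none a higher one. Fos changed by 4.01 at 8 h and 2.92 at 24 h (difference −1.09 ± 0.22), Egr2 by 3.58 and 2.21 (−1.37 ± 0.28), Ier2 by 3.45 and 1.97 (−1.48 ± 0.21) and the nuclear receptor Nr4a1 by 2.43 and 0.93 (−1.50 ± 0.24). The differences were called for these 4 genes, and for Zfp36 and Btg2 in the same direction. In the other direction Ccn1, a matrix-associated early gene, changed by 1.08 at 8 h and 2.21 at 24 h (1.13 ± 0.17), and Zfp36l2, of the tristetraprolin family, by −0.88 and 0.21 (1.08 ± 0.12). Atf3 changed by 5.13 at 8 h and 4.45 at 24 h, and Egr1 by 4.55 and 3.77, differences that were not called. Of 20 ATF4 effectors 4 had a lower effect at 24 h, among them Ddit3 (2.46 and 1.36) and Trib3 (1.57 and 0.31).

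Some matrix and fibroblast genes had a lower effect at 24 h than at 8 h. Ptn changed by −0.80 at 8 h and −3.79 at 24 h (difference −2.99 ± 0.19), Ogn by −0.65 and −3.65 (−3.0 ± 0.17), Col11a1 by −0.62 and −3.62 (−2.99 ± 0.25) and Sfrp2 by −0.85 and −4.79 (−3.94 ± 0.41). The median change of the fibroblast markers was −0.37 at 8 h and −1.49 at 24 h, of the matrix proteoglycans −0.30 and −0.57, and of the collagens −0.20 and −0.33. Called differences were all negative in these lists, which share members: 12 of 23 fibroblast markers, 13 of 49 proteoglycans and glycoproteins, and 8 of 30 collagens. Irs1 had its change early, −1.33 at 8 h and −0.93 at 24 h, as did Fasn at −0.70 and −0.68.

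**Figure D5:**
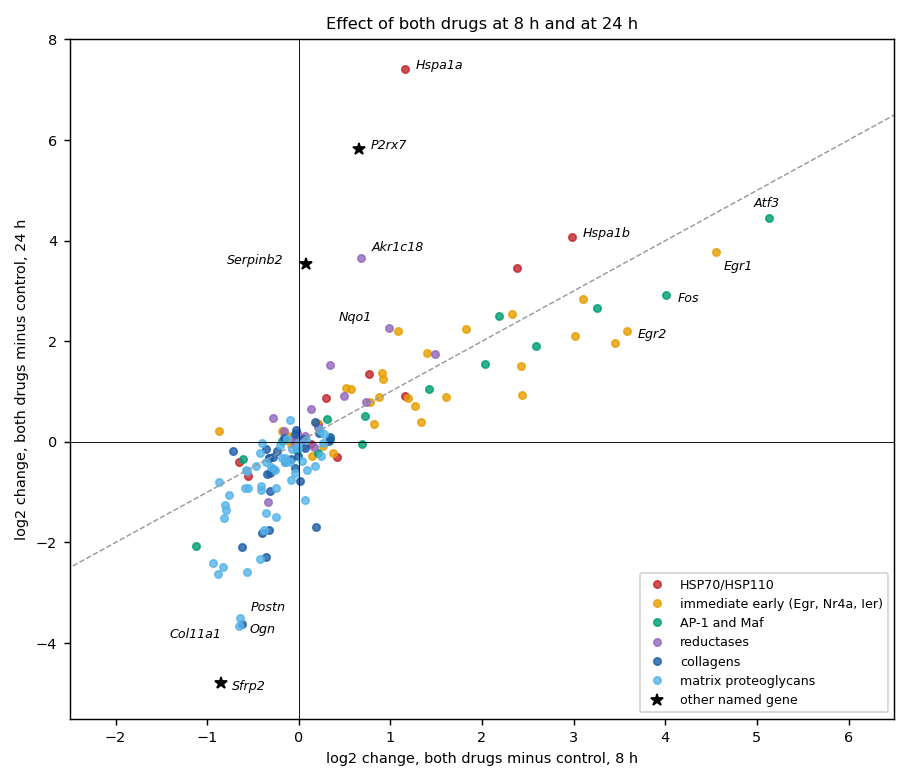
Log2 change of both drugs against the control of the same time at 8 h (x axis) and at 24 h (y axis) for members of 6 gene lists and 3 other named genes, with the dashed line marking equal change. Hspa1a, P2rx7 and Serpinb2 lie far above the line, Fos and Egr2 lie below it, and the matrix genes with called falls at 24 h spread downwards below it.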

How the data were processed

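RNA of 3T3-L1 adipocytes was hybridised to Affymetrix mouse gene arrays, 1 array per sample. The authors background-corrected, quantile-normalised and summarised the probes by robust multi-array average (RMA) and deposited log2 expression values, so that fold changes of dim genes are compressed. No count or depth belongs to such values, and the 2 arrays per group limit the precision. Probe sets with 1 symbol in the platform annotation were kept (22030 of 25293, with 685 naming several symbols and 2578 none), and the 465 genes with over 1 probe set were given the median of their probe sets on each array. 21409 of the 21506 genes matched a RefSeq gene by Entrez identifier. Groups were taken from sample titles. limma 3.58.1 in R 4.3.3 fitted 16 group means to all 32 arrays, with 5 contrasts: both drugs against control, auranofin alone and BCNU alone at 24 h, the interaction, and the 24 h against the 8 h effect. Calls needed a Benjamini-Hochberg adjusted p below 0.05 and an absolute log2 change above 0.5. The fit was tested on simulated data.

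The genes named were the 15 largest called rises and falls whose co-treated arrays lay outside the control range. To these were added the 5 largest positive and negative genes of the other contrasts and a set of chosen genes. From each of 61 lists came the 6 largest called members and the 3 uncalled members with the highest level. Predicted symbols were left out of the largest rises, falls and contrasts. Another 32 genes, among them all miRNA genes, the macrophage and endothelial markers near background, Ier2, Nr4a1, Zfp36, Fn1, Thbs2, Timp1 and Trib3, were named after their values were seen. The arrays, lists and tests were chosen with earlier results of these data known. Alternatives were centred arrays, cyclic loess, a filter on low levels, another variance prior, fewer arrays in the fit, all controls as 1 group, the mean of probe sets, probe sets tested one by one, a replicate block, a stricter size threshold and each array left out.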

Additional observations from a re-analysis of the deposited data

Results flagged for a closer look

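The effect of one drug differed with and without the other, by a test of the interaction on the log2 scale, most strongly in 10 genes with an established symbol. The positive values were 5.24 for Hspa1a, 3.45 for Atf3, 3.36 for Sprr1a, 3.36 for Fam71a and 3.32 for Egr2. Fam71a, with no role stated here, read 2.18 and 2.56 in controls and 5.57 and 5.16 with both drugs. The negative values were −3.81 for Sfrp2, −3.77 for Grem1, −3.48 for Clca3a1, −3.31 for Thy1 and −3.29 for Adm. Adm (adrenomedullin, a vasodilator peptide) read 7.33 and 7.48 in controls, 7.87 and 7.99 with auranofin, 7.53 and 7.75 with BCNU and 4.91 and 4.84 with both. Clca3a1, of the calcium-activated chloride channel regulator family, read 7.03 and 7.66, 7.64 and 7.82, 7.97 and 8.25, and 5.11 and 4.92 in the same order.

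The effect of both drugs differed between 8 and 24 h, by a test of the difference, most strongly in another 10 entries. The 24 h effect was higher by 6.25 for Hspa1a, 5.16 for P2rx7, 3.46 for Serpinb2, 3.23 for Ccdc81 and 3.19 for Il13ra1. It was lower by −3.94 for Sfrp2, −3.0 for Ogn, −2.99 for Ptn, −2.99 for Col11a1 and −2.86 for Postn. The controls of Hspa1a, Serpinb2 and Ccdc81 were near background at 24 h, and whether the times were processed together was not tested.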

How the results depend on the processing

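Of 3306 values of the 221 named genes under the alternatives, 3142 kept their direction and side of the threshold, 142 lost a call (38 of them to a size threshold of 1), 5 gained one and 17 changed sign. Of 185 named genes called, 159 kept their call on leaving out any array. Fitting only the arrays of the groups compared, which leaves fewer degrees of freedom, gave 858 genes against control, 624 against auranofin, 713 against BCNU, 370 for the interaction and 115 for 24 h against 8 h, and fitting only arrays of the same times gave 370 for the interaction and 361 for 24 h against 8 h. A size threshold of 1 log2 unit gave 670, 591, 621, 473 and 282 in that order. Leaving out 1 array gave 1506 to 1853, 1145 to 1500, 1382 to 1658, 569 to 749 and 322 to 536. Centring the arrays moved the median of all genes from 0.01 to −0.02 and the called genes that were higher from 53.5% to 47.5% against control. The arrays shared only a number between groups (correlations of their deviations from −0.037 to 0.032), and the fit with the replicate block gave 1966, 1614, 1816, 833 and 595.

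The genes that changed sign were all uncalled and near 0. Centring gave −0.0035 for Csf1r and −0.017 for Hspa9, cyclic loess gave 0.025 for Asns and −0.0022 for Csf1r, and all controls as 1 group gave −0.064 for Cdh5 and −0.0096 for Tie1. Leaving out an array moved Adgre1 between −0.32 and 0.034, Asns between −0.041 and 0.035, Csf1r between −0.034 and 0.088, Hspa9 between −0.057 and 0.083, Mgmt between −0.21 and 0.00034, Ptprc between −0.16 and 0.10 and Vim between −0.013 and 0.095. Levels near the background mark limit what can be said of dim genes.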
